A study of Homo sapiens with 10 samples.

Results

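The 9 genes followed here handle retinoic acid, a signal derived from vitamin A: STRA6, ALDH1A2, DHRS3, CYP26A1, CYP26B1, CRABP1, CRABP2, RARB and RARG. They were picked by gene symbol, and all 9 were found in each of the 3 deposited tables, out of 27492 gene symbols in all. The cells were H9, an established human embryonic stem cell (hESC) line of wild-type genotype with a GFP reporter driven by LTR7, the long terminal repeat of the retroviral element HERVH. Bulk RNA came from 5 groups. Primed hESCs in mTeSR were left untreated or kept for 12 days with crotonate at 10 mM, hEPS cells converted in LCDM medium were untreated or given the same treatment, and endodermal cells were made from the line with BMP4, Activin A and an initial CHIR99021 step. The hEPS cells had been grown on mouse feeder cells, which were removed by adherence before collection. The labels list 2 samples per group, but each table holds 1 FPKM value (fragments per kilobase of gene, scaled to the mapped total) per gene and group, so no SD, test or p-value of a group difference could be computed.

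Retinoic acid is made from vitamin A and acts through nuclear receptors that bind DNA and turn genes on or off. STRA6 is a membrane receptor through which cells take up retinol, ALDH1A2 oxidises retinaldehyde to retinoic acid, and DHRS3 reduces retinaldehyde back to retinol. CYP26A1 and CYP26B1 degrade retinoic acid, CRABP1 and CRABP2 bind it inside the cell, and RARB and RARG are receptors. In the embryo ALDH1A2 marks mesoderm that produces retinoic acid, and the signal patterns the trunk, limbs, heart and gut, in part through HOX genes. CYP26A1 and RARB are classic targets of the pathway, switched on through a response element called DR5, which is a pair of half-sites in direct repeat with 5 bases between them.

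The DR5 element was the sequence feature shared by these 2 targets. RefSeq promoter windows (GRCh38.p14) of 300 bases, from 250 before to 50 after a start site, were searched on either strand for a pair of half-sites in the same direction. A half-site was AGGTCA or one of its variants, which were AGTTCA and also GGGTCA and also GGTTCA, in any combination. Of 35116 windows of all genes, 31 (0.0883%) held a DR5, and 2 of these belonged to the 9 genes, which had 20 windows among them. The RARB repeat of 17 bases lies 53 to 37 bases before its start site, within the printed stretch chr3:25428203-25428232. The CYP26A1 repeat, of the same length, lies 90 to 74 bases before its start site, within the printed stretch chr10:93073796-93073825. Each also lies within an exon of a longer annotated transcript of the same gene. The stretches are shown because they set these 2 genes apart from the other 7 in this window, in 5′ to 3′ order on the gene's strand, with the DR5 in capitals.
RARB: cgggtagGGTTCACCGAAAGTTCActcgca
CYP26A1: ttaaagaTGAACTTTGGGTGAACTaattgt
In CYP26A1 the repeat reads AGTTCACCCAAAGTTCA on the opposite strand. The related DR2, with 2 bases between the half-sites, was in 14 windows (0.0399%) and in none of the 9 genes. A match is a description of the letters and not a measured binding site.

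Changes are differences of log2(FPKM + 1) within a table, and a gene was called higher or lower at 2-fold or more on that scale when it reached 1 FPKM in one of the compared columns (a measured gene). This scale understates the change of low values. Under this rule 13.9% of 13210 measured genes were called higher and 12.7% lower in crotonate-treated primed hESCs, and 8.42% of 14161 were called higher and 3.02% lower in crotonate-treated hEPS cells. The median change over all measured genes was -0.08 and -0.09. Read totals are not given, but values below 0.3 FPKM keep the steps of whole reads. The smallest whole numbers of reads that give a gene's pair of values were recovered from these steps. Exact 95% intervals of a ratio were made from them and cover counting error only. A factor shared by a gene's read numbers is lost, so an interval can be wider than counting error. The defining markers bore out the labels in part. The summed level of 6 pluripotency markers was 1624 FPKM in untreated primed hESCs and 157 FPKM with crotonate, and 1223 and 711 FPKM in hEPS cells. In treated primed hESCs 2 of the 6 reached 1 FPKM, LIN28A at 115 FPKM and DPPA4 at 41.3 FPKM. POU5F1, NANOG and SOX2 fell there from 827, 41.0 and 128 FPKM to 0.420, 0.0165 and 0.547 FPKM. The summed level of 7 endoderm markers was 4.0 and 223 FPKM in untreated and treated primed hESCs, and 128 and 2458 FPKM in hEPS cells. Few genes carried these sums. GATA4 and CXCR4 were 123 and 65.4 FPKM in treated primed hESCs, and CER1 alone was 1962 FPKM in treated hEPS cells. In primed hESCs 5 of the 7 were called higher and 2 neither, and CER1 went from 1.59 to 0.342 FPKM. In hEPS cells all 7 were called higher. In the column labelled endodermal cells the endoderm factor FOXA2 was listed at 0, 3 of the 7 endoderm markers and 7 of 8 lateral plate mesoderm markers reached 1 FPKM, and their sums were 138 and 435 FPKM. In the same column 5 of 6 trophoblast and amnion markers reached 1 FPKM, and they summed to 87.1 FPKM, against 7.0 to 13.0 FPKM in the other columns.

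In primed hESCs crotonate raised ALDH1A2, CRABP2 and STRA6 and lowered CRABP1, DHRS3 and CYP26A1. In hEPS cells CYP26A1 rose and CRABP1 fell, and no other member was called. Of the 9 genes, 8 were measured in each comparison, RARB being below 1 FPKM in the primed columns and ALDH1A2 in the hEPS columns. The counts were 3 higher, 3 lower and 2 neither in primed hESCs, against 26.6% of all measured genes called in either direction, and 1 higher, 1 lower and 6 neither in hEPS cells, against 11.4%. At a ratio of FPKM over 1.5 instead, 4 were higher and 3 lower in primed hESCs, where 25.3% of all measured genes were higher, 28.5% lower and 53.8% either. In hEPS cells 3 were higher and 2 lower by that ratio, where 20.1% of all were higher, 18.1% lower and 38.2% either. ALDH1A2 and CYP26B1 in primed hESCs, and CYP26B1 and RARB in hEPS cells, passed the filter only through the crotonate column, and DHRS3 in primed hESCs only through the untreated column.

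**Figure D1:**
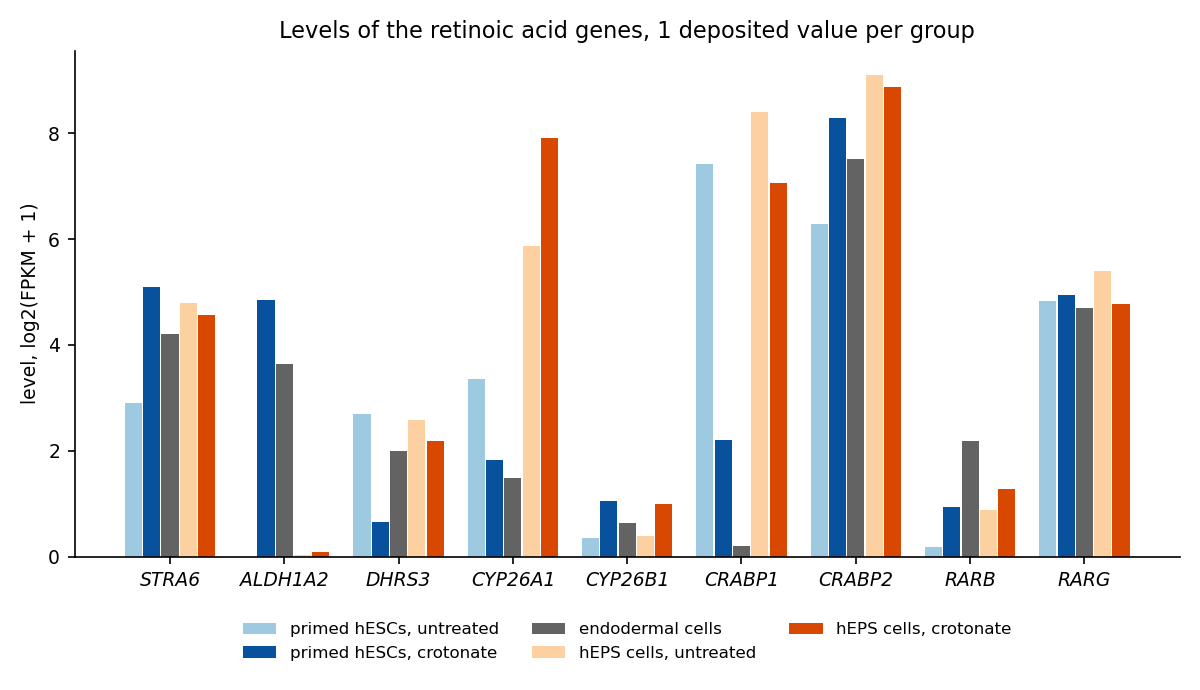
Levels of the 9 genes on the log2(FPKM + 1) scale, with 1 bar per group for the deposited value and no error bar because each group has 1 value. ALDH1A2 is high only in crotonate-treated primed hESCs and endodermal cells, and CYP26A1 is highest in crotonate-treated hEPS cells at 239.7 FPKM.

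ALDH1A2, the enzyme that makes retinoic acid in mesoderm, showed the largest rise of the 9 genes in primed hESCs. It lies on chromosome 15 from 57953424 to 58497866, minus strand (hg38, GENCODE 44). Its level was listed at 0 in untreated primed hESCs and stood at 27.8 FPKM with crotonate. The log2 change of 4.85 is set by the pseudocount, since untreated cells were at 0, and was 8.12 with a pseudocount of 0.1. It was 11.5 FPKM in endodermal cells, whose column stands in a table of its own, so no fold is given. In hEPS cells it was 0.0149 FPKM untreated and 0.0588 FPKM with crotonate, which correspond to 1 and 3 reads or the same multiple of them. ALDH1A2 was therefore near 0 in 3 of the 5 columns and present in the 2 columns that also held lateral plate mesoderm markers. The 8 markers of that mesoderm, among them HAND1, HAND2 and FOXF1, summed to 0.776 FPKM without and 759 FPKM with crotonate in primed hESCs, and to 22.1 and 47.2 FPKM in untreated and treated hEPS cells. Their part in the ALDH1A2 level was not tested, and in bulk RNA more cells of a type cannot be told from more RNA per cell. Exons of ALDH1A2 overlap those of ALDH1A2-AS1 and AQP9 on the other strand, and the sources used here do not say whether reads were counted by strand.

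STRA6, the retinol uptake receptor on chromosome 15 from 74179466 to 74212267, minus strand, rose with crotonate in primed hESCs. Its level was 6.46 FPKM untreated and 33.3 FPKM with crotonate, a ratio of 5.15 with a counting interval of 4.71 to 5.64 (log2 change 2.20). Both hEPS columns were higher than untreated primed hESCs, at 26.8 FPKM untreated and 22.8 FPKM with crotonate, a ratio of 0.850 (interval 0.771 to 0.937) that was not called. Endodermal cells held 17.5 FPKM. Untreated primed hESCs thus had the lowest STRA6 level of the 5 columns. Exons of STRA6 overlap those of CCDC33 on the other strand.

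DHRS3, which turns retinaldehyde back into retinol and so holds down retinoic acid, fell in primed hESCs. It lies on chromosome 1 from 12567910 to 12618210, minus strand. Its level was 5.49 FPKM untreated and 0.583 FPKM with crotonate, a ratio of 0.106 (interval 0.0674 to 0.16, log2 change -2.04). In hEPS cells the values were 4.97 and 3.57 FPKM, a ratio of 0.719 (interval 0.571 to 0.901) that was not called. Endodermal cells held 2.99 FPKM, between the untreated and the treated primed value.

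CYP26A1, the main enzyme of retinoic acid degradation in the early embryo, was the gene called in opposite directions in the cell states. It lies on chromosome 10 from 93073475 to 93077885, plus strand. In primed hESCs it was 9.22 FPKM untreated and 2.57 FPKM with crotonate, a ratio of 0.279 (interval 0.233 to 0.331, log2 change -1.52). The hEPS values were 57.4 FPKM untreated and 239.7 FPKM with crotonate, a ratio of 4.18 (log2 change 2.04), for which the read numbers were not recovered. Endodermal cells held 1.79 FPKM, the lowest level. The hEPS columns were the 2 highest, and the treated columns of the cell states lay further apart than the untreated ones. Of 12111 genes measured in both cell states, 174 were called lower in primed hESCs and higher in hEPS cells. Endoderm markers rose beside CYP26A1 in hEPS cells, and their part in its level was not tested. Exons of CYP26A1 also overlap those of a gene on the same strand, ENSG00000285846. CYP26B1, a second degrading enzyme on chromosome 2 from 72129238 to 72147862, minus strand, stayed near 1 FPKM or below in all 5 columns. It was 0.273 FPKM untreated and 1.06 FPKM with crotonate in primed hESCs, a ratio of 3.88 (interval 2.71 to 5.67). The hEPS values were 0.317 and 1.0 FPKM, a ratio of 3.17 (interval 1.04 to 11.5), and in endodermal cells 0.559 FPKM. It was not called in either comparison, at log2 changes of 0.69 and 0.61, although its FPKM ratios were above 2 (1.64 and 1.40 on the log2 scale with a pseudocount of 0.1).

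**Figure D2:**
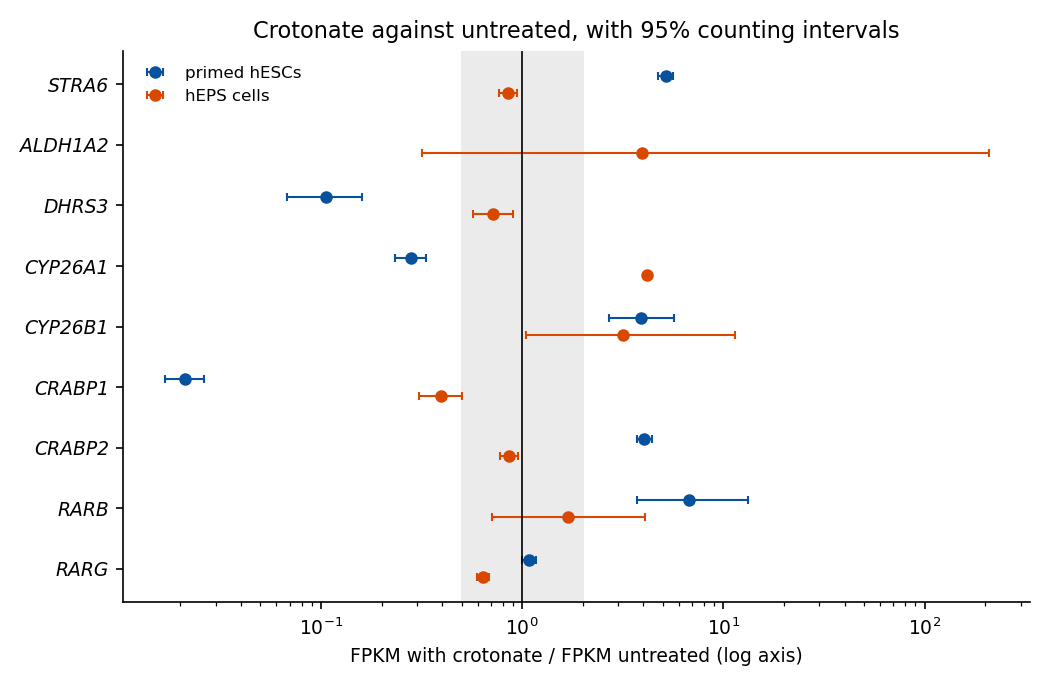
FPKM with crotonate over FPKM untreated on a log axis, for primed hESCs and hEPS cells, with bars for the exact 95% counting interval and grey for ratios within 2-fold. CRABP1 is lowest in primed hESCs at 0.0210 and CYP26A1 lies on opposite sides of 1. ALDH1A2 in primed hESCs has no ratio because untreated cells are listed at 0, and CYP26A1 in hEPS cells has no interval.

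The paralogs CRABP1 and CRABP2, small carrier proteins of retinoic acid, changed in opposite directions in primed hESCs. CRABP2 is known to deliver retinoic acid to receptors in the nucleus, while CRABP1 holds it in the cytoplasm. CRABP1, on chromosome 15 from 78340353 to 78348225, plus strand, was 171 FPKM in untreated primed hESCs and 3.61 FPKM with crotonate. The ratio was 0.0210 (interval 0.0167 to 0.0262, log2 change -5.23). In hEPS cells CRABP1 fell from 338 to 133 FPKM, a ratio of 0.394 (interval 0.308 to 0.499, log2 change -1.34). In endodermal cells it was 0.146 FPKM, the lowest of the 5 columns. Its exons overlap those of ENSG00000279694 on the other strand. CRABP1 was the only one of the 9 genes called lower in both cell states, as were 92 of the 12111 genes measured in both. Of the 5 measured pluripotency markers, 5 were called lower in primed hESCs and 1, SOX2, in hEPS cells, where NANOG was 15.3 and 25.1 FPKM and was not called. Their part in the CRABP1 level was not tested. CRABP2, on chromosome 1 from 156699606 to 156705816, minus strand, rose from 77.0 to 311 FPKM in primed hESCs, a ratio of 4.04 (interval 3.71 to 4.41, log2 change 2.0). The hEPS values were 550.2 and 472 FPKM, a ratio of 0.857 (interval 0.773 to 0.949) that was not called, and in endodermal cells 183 FPKM. Per length, CRABP2 was 0.449 times CRABP1 in untreated primed hESCs, 86.3 times with crotonate and 1251 times in endodermal cells. The endodermal quotient divides by a CRABP1 value that corresponds to 4 reads or a multiple of them, so its size is uncertain. In hEPS cells the same quotient was 1.63 untreated and 3.54 with crotonate. The order of the carriers was thus reversed between untreated and treated primed hESCs, while CRABP2 was the higher one in either hEPS column.

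Neither receptor was called in either comparison. RARG, on chromosome 12 from 53210567 to 53232980, minus strand, ranged from 24.8 FPKM in endodermal cells to 41.4 FPKM in untreated hEPS cells. It was 27.6 and 29.8 FPKM in untreated and treated primed hESCs, a ratio of 1.08 (interval 0.994 to 1.17). This interval rests on the smallest whole numbers of reads, and a multiple of them would narrow it. In hEPS cells it was 41.4 and 26.5 FPKM, a ratio of 0.641 (interval 0.598 to 0.687, log2 change -0.62) that was not called. RARB, on chromosome 3 from 24687887 to 25597932, plus strand, was low in all columns but endodermal cells. It was 0.136 and 0.914 FPKM in untreated and treated primed hESCs, a ratio of 6.71 (interval 3.70 to 13.2) from 13 and 77 reads or a multiple of them, and it was not measured under the filter. In hEPS cells it was 0.849 and 1.43 FPKM, a ratio of 1.68 (interval 0.708 to 4.09) from 11 and 14 reads or a multiple of them. A multiple would narrow the interval, so it cannot show whether the ratio differs from 1 beyond counting error. Endodermal cells held 3.56 FPKM, the highest level, and the part of the mesoderm, trophoblast and amnion markers of that column in it was not tested. RARB and CYP26A1, the pair with a DR5 in the window, thus had their highest values in different columns. RARA, RXRA, RXRB and RXRG, the other receptor genes listed, were called in 0 of 4 measured cases in each comparison. Over all measured genes 26.6% were called in primed hESCs and 11.4% in hEPS cells. Among those not called, RXRG was 0.253 and 1.13 FPKM in primed hESCs, a ratio of 4.47 at low values. RXRB was 9.21 and 4.70 FPKM in hEPS cells, a ratio of 0.510.

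Levels across the tables have a limit of scale. The hEPS columns summed to 610417 and 596397 FPKM over 26731 genes, and the primed and endodermal columns to between 369750 and 373248 FPKM over 19198 genes. On FPKM, 4 of the 9 genes were highest in an hEPS column (CYP26A1, CRABP1, CRABP2 and RARG). As a share of the column total, 3 were, because RARG was then highest in crotonate-treated primed hESCs. With 1 value per group no spread is known, so neighbours in the order of a gene's levels cannot be told apart beyond counting error.

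**Figure D3:**
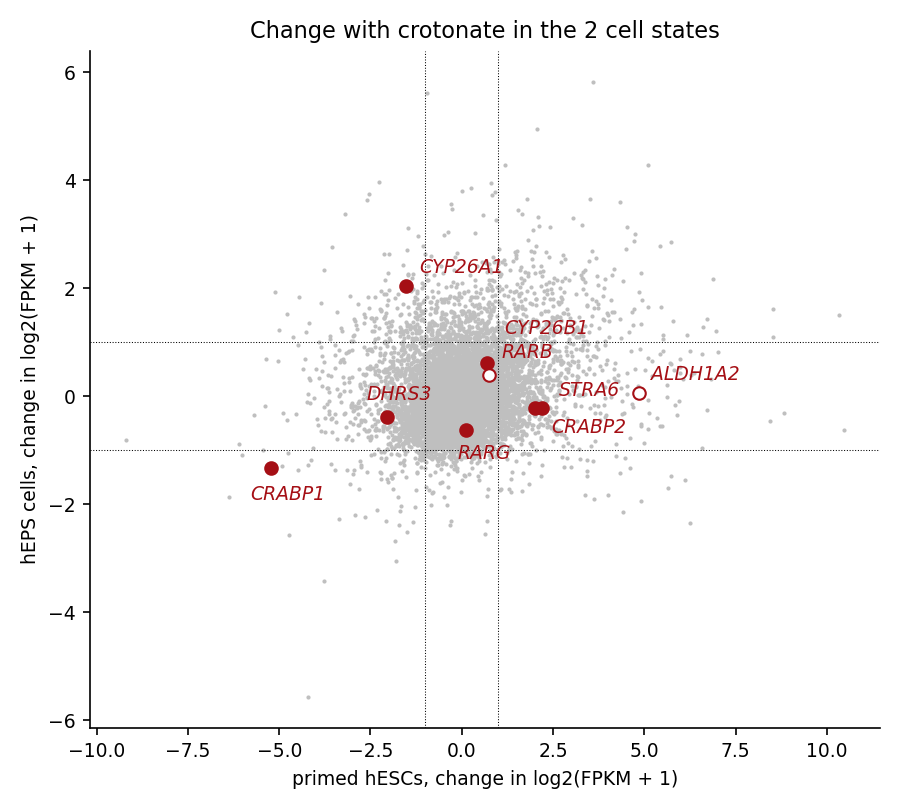
Change with crotonate in primed hESCs (x axis) and hEPS cells (y axis), each as a difference of log2(FPKM + 1), with grey points for genes measured in both, red for the 9 genes and open red for the 2 not measured in one of them. Dotted lines mark 2-fold. CYP26A1 lies at -1.52 and 2.04, and CRABP1 at -5.23 and -1.34.

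The rest of the pathway was taken from lists of 35 further genes. In primed hESCs 26 were measured, of which 2 passed as higher, 5 as lower and 19 as neither, a share called near the 26.6% of all measured genes (median log2 change -0.17, against -0.08 over all measured genes). In hEPS cells 25 were measured, of which 2 passed as higher, 1 as lower and 22 as neither, near the 11.4% of all measured genes (median 0.18, against -0.09). Among genes of retinol transport and storage, LRAT, which stores retinol as esters, fell from 3.53 to 0.391 FPKM in primed hESCs, and RBP7, a retinol carrier, fell from 2.13 to 0.315 FPKM. In hEPS cells RBP7 rose from 0.314 to 1.95 FPKM and TTR, the plasma carrier of the retinol-binding protein, fell from 1.94 to 0.118 FPKM. Among the enzymes, ALDH1A3, a second enzyme that makes retinoic acid, fell from 4.49 to 0.359 FPKM in primed hESCs and rose from 0.949 to 3.75 FPKM in hEPS cells. ALDH1A3 and ALDH1A2 thus changed in opposite directions in primed hESCs. ALDH1A1, the remaining family member, stayed below 1 FPKM in all 5 columns. RDH13 fell from 13.9 to 4.54 FPKM and DHRS9 was listed at 0 and then at 1.93 FPKM in primed hESCs. RDH10, which makes retinaldehyde from retinol, was 3.33 and 6.47 FPKM in primed hESCs and 6.56 and 6.32 FPKM in hEPS cells, and was not called. Of 8 receptor cofactors, NCOR1, a corepressor of unliganded receptors, was the one called, at 36.5 and 17.6 FPKM in primed hESCs (log2 change -1.01), close to the threshold. RDH10 and ALDH1A1 were named after their values were seen.

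Genes known to respond to retinoic acid were called mostly higher in primed hESCs and in both directions in hEPS cells. Of 21 genes found by symbol, 13 were measured in primed hESCs, with 10 called higher, 2 lower and 1 neither (median change 2.50 on the log2 scale), where 13.9% of all measured genes were called higher and 12.7% lower. Of these 13, 9 passed the filter only through the crotonate column and 7 were listed at 0 untreated, so these had to differ and their count and median are a description only. The 2 called lower were RARRES2, from 127 to 28.2 FPKM, and RET, from 4.47 to 0.929 FPKM. In hEPS cells RARRES2 was also called lower, from 40.4 to 19.2 FPKM, and RET was not called, at 15.2 and 15.6 FPKM. RARRES2 and RET were named after their values were seen. In hEPS cells 15 were measured, with 3 called higher, 3 lower and 9 neither (median 0.037), where 8.42% of all were called higher and 3.02% lower. MEIS2, a homeobox cofactor of HOX proteins, was listed at 0 and then at 29.2 FPKM in primed hESCs and fell from 23.1 to 5.23 FPKM in hEPS cells. HOXB5, a trunk patterning gene, was listed at 0 and then at 21.9 FPKM in primed hESCs and was below 0.1 FPKM in hEPS cells. MEIS1, a paralog of MEIS2, was listed at 0 and then at 11.8 FPKM in primed hESCs and was 2.64 and 2.86 FPKM in hEPS cells. TGM2, a tissue transglutaminase, rose from 0.660 to 12.1 FPKM in primed hESCs and from 0.720 to 3.23 FPKM in hEPS cells, and was 101 FPKM in endodermal cells. MEIS1, MEIS2 and HOXB5 are also expressed in mesoderm, and the part of such cells was not tested. Markers of lateral plate mesoderm were higher in the same column, as given above. The 7 markers of paraxial and intermediate mesoderm summed to 6.54 FPKM untreated and 13.2 FPKM with crotonate in primed hESCs. Of these 7, 3 were measured, with 1 called higher and 2 neither (median log2 change -0.03).

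**Figure D4:**
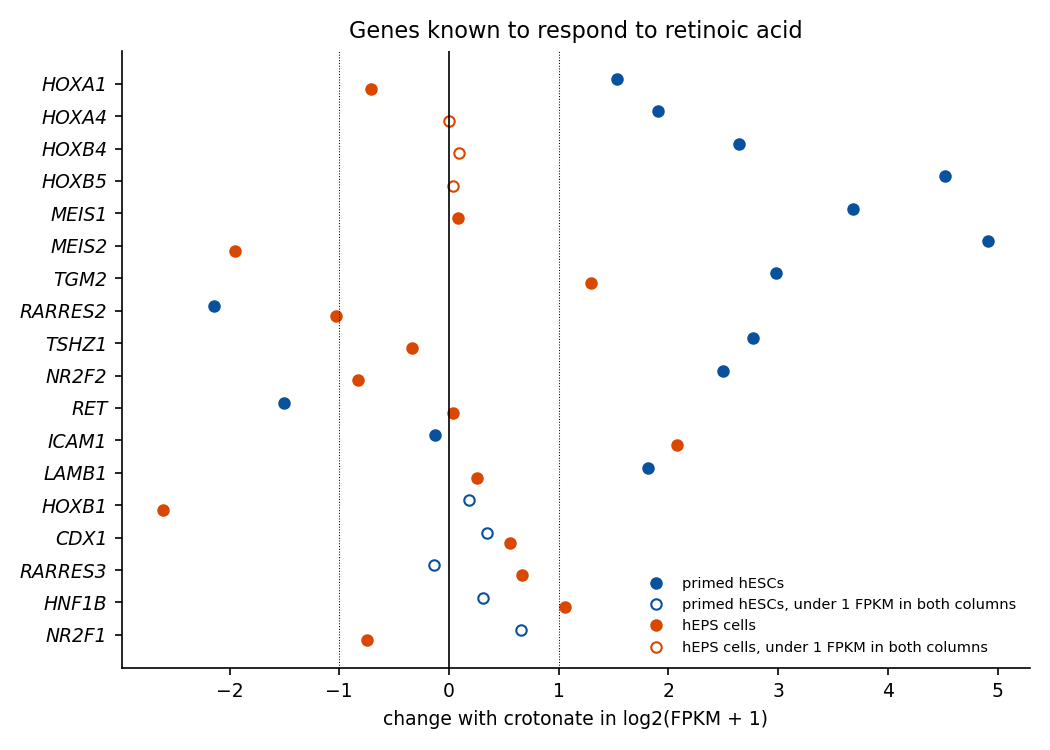
Change with crotonate, as a difference of log2(FPKM + 1), of the genes known to respond to retinoic acid that were measured in at least 1 cell state. Open points mark genes below 1 FPKM in both compared columns and dotted lines mark 2-fold. MEIS2 is raised in primed hESCs and lowered in hEPS cells.

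The genes closest to 3 of the members in pattern were sought among 13545 genes by the Euclidean distance of log2(FPKM + 1) over the 5 columns, as a description. Nearest to ALDH1A2 were ART4 (distance 0.36), HOXB5 (0.38) and HOXB7 (0.47), which share values near 0 in untreated primed hESCs and hEPS cells. Nearest to CRABP1 were SOX2 (2.02), a factor of pluripotent and neural cells, SFRP2 (2.17) and ZSCAN10 (2.38). Nearest to CYP26A1 were FAM174B (1.39), PRODH (1.51) and FAM184A (1.70). The distances for CRABP1 and CYP26A1 were larger than those for ALDH1A2. The scale compresses values near 0, where ALDH1A2 stood in untreated primed hESCs and hEPS cells, so distances do not compare between members.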

How the data were processed

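Per the paper's methods and the submitters' processing notes, oligo(dT)-enriched mRNA was sequenced and processed on hg38. TopHat 1.3.2 and Cufflinks 1.1.0 are named for mapping, HTSeq 0.6.0 with StringTie 1.3.0 for counting, and the authors scaled by TMM before making FPKM. The authors deposited FPKM values in 3 tables whose 5 columns each stand for a group. The sources used here do not say how a group's 2 samples were combined, and 0 other columns held values of single samples. The members and gene lists were chosen with earlier results of these data known, so no list test was run. All 9 members are named, with up to 4 called genes of each other list by size of change and the 3 nearest genes in pattern of ALDH1A2, CRABP1 and CYP26A1, except that 1 gene the rule names is not reported here. Rows whose symbol had become a calendar date (28 of the hEPS table, 27 of each other table) were not used.

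Depth is known only as relative read steps. Of 1231 genes below 0.3 FPKM in both primed columns, 98.1% stood in whole-number ratios up to 50 (relative tolerance 1e-06), against 0% when the factor was shifted by 1%, and 99.5% of 2428 did so in hEPS cells. The value of 1 read with crotonate was 1.13 times that untreated in primed hESCs and 1.32 times in hEPS cells. Common factors of the reads are lost, so intervals (Clopper-Pearson, 95%) are at least as wide as counting error. Alternatives were a pseudocount of 0.1, no filter, quantile normalization, centring, a ratio over 1.5, summed entries, shares of the column total and stricter half-sites. The calling rule and read recovery were tested on simulated data. The work used pandas 2.3.3 and numpy 2.4.6 under Python 3.11.15, with intervals from scipy 1.17.1 and plots from matplotlib 3.10.9.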

Additional observations from a re-analysis of the deposited data

Results flagged for a closer look

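In 3 genes the change with crotonate had opposite signs in primed hESCs and hEPS cells, with a call in at least one of them. The change of CYP26A1 was -1.52 on the log2 scale in primed hESCs and 2.04 in hEPS cells, a difference of -3.56, and it was called in both. The change of STRA6 was 2.20 and -0.23, a difference of 2.43, and that of CRABP2 was 2.0 and -0.22, a difference of 2.22, and both were called in primed hESCs only. Under quantile normalization the change of CRABP2 in hEPS cells was 0.046, so its signs were then the same in both cell states. Each group has 1 value, so none of these differences was tested.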

How the results depend on the processing

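Quantile normalization, centring on the median, no filter on low values and summed entries changed the call of 0 of the 9 genes in either comparison. The direction of CRABP2 in hEPS cells, which was not called, turned from -0.22 to 0.046 on the log2 scale under quantile normalization. The median shift removed by centring was -0.08 and -0.09. With a pseudocount of 0.1, 2 genes were called higher in hEPS cells instead of 1. Calling genes by an FPKM ratio above 1.5, 3 were higher and 2 lower in hEPS cells, the added ones being CYP26B1, RARB and RARG, and CYP26B1 was also called higher in primed hESCs under either alternative. Over all genes the ratio rule called 3336 higher and 3768 lower in primed hESCs, against 1834 and 1674, and 2841 and 2566 in hEPS cells, against 1193 and 428, and the pseudocount of 0.1 called 1743 and 787 in hEPS cells. With half-sites AGGTCA or AGTTCA alone, 1 of the 9 genes held a DR5 in the promoter window, namely CYP26A1, since the RARB site has GGTTCA. No paired analysis was possible because each group has 1 column, and no replicate could be left out. For ALDH1A2, CYP26B1 and RARB in hEPS cells the recovered reads were 14 or fewer, or a multiple of them. The shared factor is lost, so how far counting error limits these values is not known.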

Other observations

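Low values of untreated primed hESCs and untreated hEPS cells did not share read steps. Of 1290 genes below 0.3 FPKM in both, 8.45% stood in whole-number ratios up to 50, against 98.1% within the primed table and 98.2% between untreated primed hESCs and endodermal cells. The value of 1 read per gene was thus in a fixed ratio between the primed and endodermal columns and not between these and the hEPS columns. CYP26A1 stood, per length, at 0.0925 times ALDH1A2 in crotonate-treated primed hESCs and at 0.155 times in endodermal cells. These quotients lie within a column and so do not depend on the scaling between tables. None is given for hEPS cells, where ALDH1A2 rested on 1 and 3 reads or a multiple of them.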
